A study of Rattus norvegicus with 6 samples.

Results

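The genes of cholesterol and fatty acid synthesis were followed as a group of 28 in rat neural stem/progenitor cells (NSPCs) grown on carbon films of different electrical conductivity. The members were taken by gene symbol from the count tables, whose 17048 rows carry 16881 different symbols, and all 28 symbols were found. They comprise 7 enzymes of the mevalonate pathway (Acat2, Hmgcs1, Mvk, Pmvk, Mvd, Idi1 and Fdps), 11 enzymes from squalene to cholesterol (Fdft1, Sqle, Lss, Cyp51, Tm7sf2, Msmo1, Nsdhl, Hsd17b7, Ebp, Sc5d and Dhcr7), 4 regulators and carriers (Srebf2, Srebf1, Insig1 and Stard4), and 6 enzymes of fatty acid synthesis and modification (Acly, Acaca, Fasn, Elovl6, Fads1 and Fads2). Of the 28 genes, 26 had enough counts for testing, and Acaca and Fads2 had 0 counts in all 6 libraries.

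The libraries come from wild-type rat NSPCs, multipotent cells that can form neurons and glia, kept for 24 h in medium that maintains stemness on a “High”, “Medium” or “Low” conductive film. All groups thus share the genotype, the medium and the time, and they differ in the film. The films carry carbon nanotubes and graphene oxide nanoribbons, and the authors coated each with poly-D-lysine, at a concentration that was not the same for every film, and with laminin. There were 2 libraries per film, made with QuantSeq, a method that reads the 3′ end of polyadenylated transcripts, and longer transcripts therefore gain no extra counts. Nothing in the labels says that the libraries of a film came from separate cultures, so the p-values measure the spread between these libraries, which may be technical, and no batch is named.

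Cells make cholesterol from acetyl-CoA. The mevalonate pathway builds isoprenoid units, squalene synthase joins them into squalene, and a chain of enzymes in the endoplasmic reticulum turns squalene into sterols. The sterol regulatory element-binding proteins (SREBPs), encoded by Srebf2 and Srebf1, are membrane-bound transcription factors that are released when sterols are low and that act on the promoters of these enzymes together with NF-Y, a factor that binds CCAAT boxes. Brain cells rely on their own synthesis, since circulating lipoproteins do not cross the blood-brain barrier, and dividing progenitors need sterols and fatty acids for new membrane.

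Most promoters found for the members hold a CCAAT box, a feature that the choice by symbol did not use, and 4 of them are shown because they cover the most abundant member (Idi1), the sterol enzyme with the most counts (Msmo1), an enzyme whose High libraries lay apart from the other 4 (Nsdhl) and the regulator with the highest level (Srebf2). Each window of 300 bases runs from 250 bases before to 50 bases after the annotated start, 5′ to 3′ on the strand of the gene, in the RefSeq annotation of GRCr8. The capitals mark CCAAT, or its reverse complement ATTGG where the box lies on the other strand. The windows are chr17:66547475-66547774 (minus strand), chr16:29746863-29747162 (plus strand), chrX:155817110-155817409 (plus strand) and chr7:115543057-115543356 (plus strand).
Idi1: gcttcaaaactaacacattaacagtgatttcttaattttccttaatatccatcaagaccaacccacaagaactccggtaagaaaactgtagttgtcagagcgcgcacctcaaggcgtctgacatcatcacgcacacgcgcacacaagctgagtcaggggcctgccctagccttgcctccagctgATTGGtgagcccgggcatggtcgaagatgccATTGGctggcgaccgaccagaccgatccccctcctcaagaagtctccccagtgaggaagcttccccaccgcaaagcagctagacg
Msmo1: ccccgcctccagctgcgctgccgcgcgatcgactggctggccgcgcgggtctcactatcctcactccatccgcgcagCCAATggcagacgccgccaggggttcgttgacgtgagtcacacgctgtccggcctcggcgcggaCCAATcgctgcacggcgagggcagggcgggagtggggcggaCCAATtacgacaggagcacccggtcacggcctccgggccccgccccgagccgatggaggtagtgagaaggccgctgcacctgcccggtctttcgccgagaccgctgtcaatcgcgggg
Nsdhl: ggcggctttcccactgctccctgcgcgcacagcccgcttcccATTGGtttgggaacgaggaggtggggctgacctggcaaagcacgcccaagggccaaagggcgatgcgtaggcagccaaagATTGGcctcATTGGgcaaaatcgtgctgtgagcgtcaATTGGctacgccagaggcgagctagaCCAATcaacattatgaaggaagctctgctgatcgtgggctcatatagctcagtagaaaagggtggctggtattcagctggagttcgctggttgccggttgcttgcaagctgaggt
Srebf2: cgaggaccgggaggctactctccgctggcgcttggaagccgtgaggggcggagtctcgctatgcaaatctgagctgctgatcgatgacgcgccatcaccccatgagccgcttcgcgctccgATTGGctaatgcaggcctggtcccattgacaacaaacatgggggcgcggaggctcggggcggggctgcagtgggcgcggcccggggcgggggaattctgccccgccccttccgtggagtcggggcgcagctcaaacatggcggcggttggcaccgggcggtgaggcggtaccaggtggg

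Windows were found for 21 of the 28 members, 22 windows in all because Srebf1 has 2 starts. Pmvk, Fdft1, Sqle, Stard4, Acaca, Fasn and Elovl6 were without one in the table. CCAAT, searched on both strands, was present in 18 of the 22 windows (81.8%) and in 17 of the 21 genes. It was present in 37.5% of the 33469 windows of all genes and in 38.8% of the 6268 windows of genes tested here, and in 26 of the 49 windows (53.1%) of the other pathway genes listed. Nsdhl and Mvk had 5 matches each, Msmo1 and Hsd17b7 had 3 each, and Acat2, Cyp51, Dhcr7 and Fads2 had none. Of the 37 matches, 29 (78.4%) were centred between 200 and 50 bases before the start, beside 57.6% of the matches in all windows. A 9-letter form of the sterol regulatory element, TCACNCCAC with N for any base, was in 0 of the 22 windows and in 1.12% of all windows, which says only that these letters are not in these windows. These matches are a description of the letters and not of binding.

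**Figure D1:**
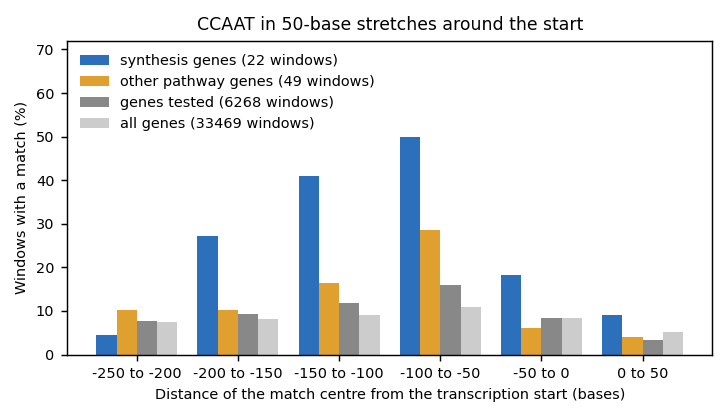
Share of promoter windows (%) with a CCAAT match, on either strand, in each stretch of 50 bases around the transcription start, for the 22 windows of the synthesis genes, the other pathway genes, the genes tested and all genes. The synthesis genes have the most matches from 100 to 50 bases before the start, in 11 of the 22 windows, where 28.6% of the windows of other pathway genes and 10.9% of all windows have 1.

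The libraries held 5124863 to 6213676 counts each, of which the 28 genes took 0.329% to 0.547%. Medium replicate 1 had a count in 5355 rows and in 21 members, the fewest of all. The other libraries had a count in 6689 to 7809 rows and in 23 to 26 members. Levels are given as CPM (counts scaled to a common library size) after TMM scaling, which sets the libraries to a common level through most genes, and 1 count was worth 0.14 to 0.238 CPM. The share of counts on ribosomal RNA rows was 26.1% and 38.4% in the High libraries and 7.16% to 13.0% in the others, and scaling by library totals alone moves the median log2 difference of all rows tested, Low and Medium against High, from -0.12 to 0.26. The progenitor genes Sox2, Nes and Vim were present in every library, while Hes5, Prom1 and Msi1, also on that list, were at 0 in all 6. The summed level of the list of 10 neural stem and radial glia genes was 2455 and 2832 CPM on High and 3835 to 4898 CPM on the other films. That of 10 oligodendrocyte lineage genes was 350 to 437 CPM on High and 602 to 835 CPM elsewhere. Of 9 microglial genes 7 were at 0 in all libraries, and of 10 vascular and meningeal genes 6 were, with a sum of at most 35.6 CPM except in Medium replicate 2 (337 CPM). Ribosomal RNA and these marker sums therefore separate High from the other films, and their part in the results below was not tested. In bulk RNA, fewer cells of a type and less RNA per cell cannot be told apart.

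Each comparison was drawn from 1 fit of all 6 libraries by edgeR's quasi-likelihood test, and p-values were adjusted by Benjamini-Hochberg over the 7729 rows tested. No member passed an adjusted p of 0.05 in any comparison. In Low and Medium together against High, the count was 0 of 26 members, beside 10 rows (0.129%) of all tested, and DESeq2 called 2 members, Sqle and Hsd17b7, among 375 rows. At an unadjusted p under 0.05, 1 member was higher (Sqle) and 0 were lower, where 2.69% of all rows were higher and 2.81% lower. Of the 26 members, 11 (42.3%) had a positive log2 difference, close to the 45.9% of all rows. The median was -0.10, and -0.12 over all rows.

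The pairwise comparisons, which share libraries with each other, also gave 0 members past the adjusted threshold. For Low against High 0 members passed the adjusted threshold (0.0518% of all rows did) and 1 had an unadjusted p under 0.05 (Sqle, 4.27% of all rows). DESeq2 called 2 there (Sqle and Hsd17b7), among 300 of the 7729 rows. For Medium against High 0 passed (0.0129% of all rows), 1 had an unadjusted p under 0.05 (Srebf2, 4.04% of all rows) and DESeq2 called 1 (Srebf2), among 307 rows. For Low against Medium 0 passed (0.00% of all rows), 1 had an unadjusted p under 0.05 (Srebf2, 1.51% of all rows) and DESeq2 called 1 (Hsd17b7), among 116 rows. Whether edgeR calls Srebf2 and Acly depends on Medium replicate 2, without which the lone Medium library is assumed to vary like the others. That lone library, replicate 1, had the fewest rows with a count. Without Medium replicate 2 the median of all rows moved from -0.059 to -0.77 in Medium against High. In Low against Medium it moved from 0.072 to 0.65, so the shift was not limited to the members.

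For 7 members both High libraries lay apart from the other 4. For 3 of 26 members the 4 libraries of Low and Medium exceeded both of High (11.5%; Sqle, Nsdhl and Fads1), beside 8.06% of all rows. They lay below both for 4 of 26 (15.4%; Acat2, Cyp51, Msmo1 and Srebf2), beside 10.1% of all rows. With library totals alone as the scale, 5 members lay above (Sqle, Nsdhl, Fads1, Hmgcs1 and Dhcr7) and 0 below, so that the members below High depend on the scaling. That scale also raised the median of all rows from -0.12 to 0.26. The share of all rows that lay apart on it was not computed, so these counts cannot be set beside one.

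**Figure D2:**
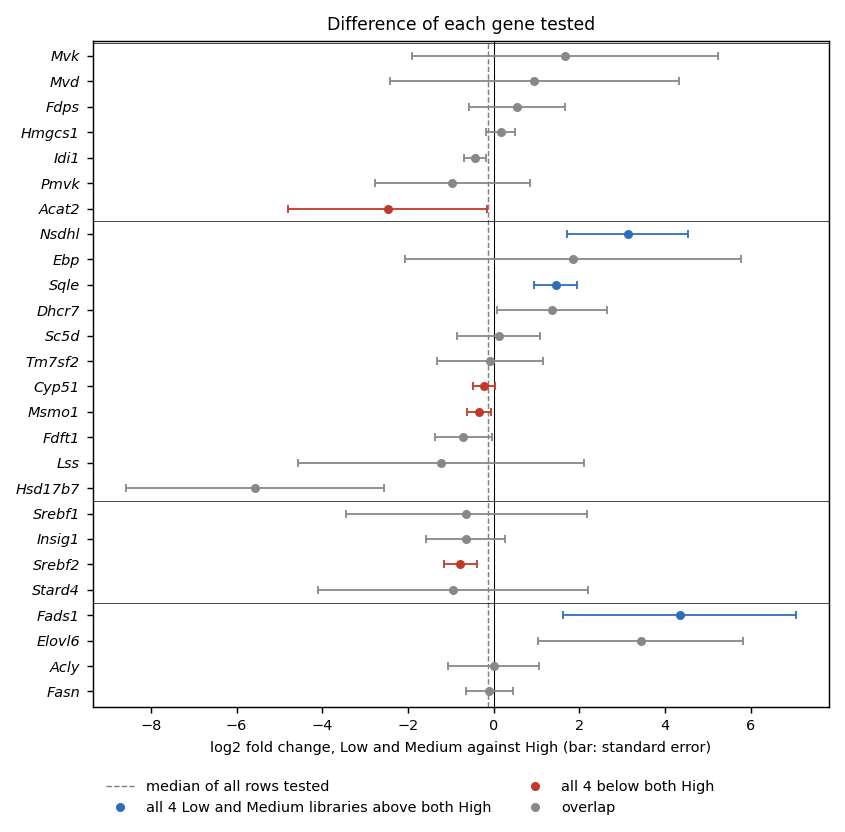
Log2 difference of Low and Medium together against High for the 26 members tested (points, with the standard error as bars), grouped by role from the mevalonate pathway at the top to fatty acid enzymes at the bottom. The points lie on both sides of the median of all rows (dashed, -0.12), and the widest bars belong to genes with few or no counts in some libraries.

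In the mevalonate pathway, neither of the genes with the most counts, Idi1 and Hmgcs1, separated both High libraries from the other 4. Idi1, the isomerase that interconverts the isoprenoid units, had 1961 and 1217 CPM on High, 1218 and 855 on Medium, and 1228 and 1455 on Low. It was the member with the most counts in every library, and its High libraries differed from each other more than its Low libraries did. Its log2 difference, Low and Medium against High, was -0.43 ± 0.25 (SE; adjusted p = 0.801), with a 95% interval from 0.503-fold to 1.10-fold. Hmgcs1, which makes HMG-CoA, had 294 and 315 CPM on High, 347 and 344 on Medium, and 243 and 432 on Low. Low alone spanned all the other libraries, and the log2 difference was 0.17 ± 0.34, with an interval from 0.665-fold to 1.90-fold.

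Acat2, the cytosolic thiolase that joins acetyl-CoA at the start of the pathway, had its higher levels on High. It had 70.4 and 27.6 CPM on High, 13.2 and 1.14 on Medium, and 1.73 and 19.9 on Low. Both High libraries lay above the other 4 on the TMM scale, while Medium and Low overlapped, and the replicates within each film differed by several-fold. The log2 difference of -2.47 ± 2.31 did not pass (adjusted p = 0.925). Fdps, which makes farnesyl diphosphate, had 76.3 and 17.1 CPM on High, 13.8 and 60.6 on Medium, and 94.3 and 152 on Low. Low was highest in both libraries, with a log2 difference from High of 1.40 ± 1.29 (adjusted p = 1).

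The other 3 mevalonate enzymes were uneven between replicates, and none passed the test. Pmvk, phosphomevalonate kinase, had 78.8 and 33.5 CPM on High, 0 and 24.3 on Medium, and 92.9 and 43.3 on Low, so that both Medium libraries were the lowest. Mvk, mevalonate kinase, ran from 0 in Low replicate 2 to 34.5 CPM in Medium replicate 1. Mvd, the decarboxylase that follows the kinases, ran from 0 in High replicate 2 to 33.8 CPM in Medium replicate 1. Both Medium libraries were above the other 4 for Mvk, while for Mvd the films overlapped.

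Among the members, Sqle had the lowest p in Low and Medium against High. It encodes squalene epoxidase, the oxygen-requiring enzyme that commits squalene to sterols. Sqle had 82.7 and 90.5 CPM on High, 264 and 130 on Medium, and 235 and 330 on Low. Both High libraries were the lowest of the 6 and close together. The means were 86.6 ± 5.54 (SD, n = 2) on High, 197 ± 95.0 on Medium and 283 ± 67.1 on Low. The log2 difference of Low and Medium against High was 1.45 ± 0.51, or 2.73-fold with an interval from 1.24-fold to 5.98-fold (unadjusted p = 0.0174, adjusted p = 0.778 by edgeR's quasi-likelihood test). It stayed between 1.15 and 1.86 in all 13 alternatives, with adjusted p from 0.0307 with DESeq2 to 0.9999. Against High, Low gave 1.71 ± 0.56 (unadjusted p = 0.0127) and Medium 1.19 ± 0.56 (unadjusted p = 0.0583), while Low and Medium differed by 0.52 ± 0.55.

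Nsdhl, a dehydrogenase that works with Msmo1 in removing methyl groups from the sterol ring, was the other sterol enzyme above High. It had 20.5 and 1.19 CPM on High (100 and 5 counts), 94.3 and 82.8 on Medium, and 135 and 69.0 on Low. All 4 Low and Medium libraries lay above the higher High library. The log2 difference was 3.13 ± 1.41 (unadjusted p = 0.0511, adjusted p = 0.801), and its size depends on the High libraries, since without High replicate 2 it was 2.21 and without High replicate 1 it was 6.30.

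Cyp51 and Msmo1, which carry out successive demethylations of lanosterol, were the sterol enzymes with the most counts. Cyp51 had 595 and 550 CPM on High, 545 and 477 on Medium, and 425 and 518 on Low. Msmo1 had 716 and 616 CPM on High, 359 and 607 on Medium, and 562 and 596 on Low. On the TMM scale both genes were lower in every Medium and Low library than on High, but High replicate 2 lay within 10 CPM of the nearest Medium library for each. The log2 differences were -0.22 ± 0.26 for Cyp51 and -0.33 ± 0.28 for Msmo1, and they became 0.17 and 0.046 with library totals alone.

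**Figure D3:**
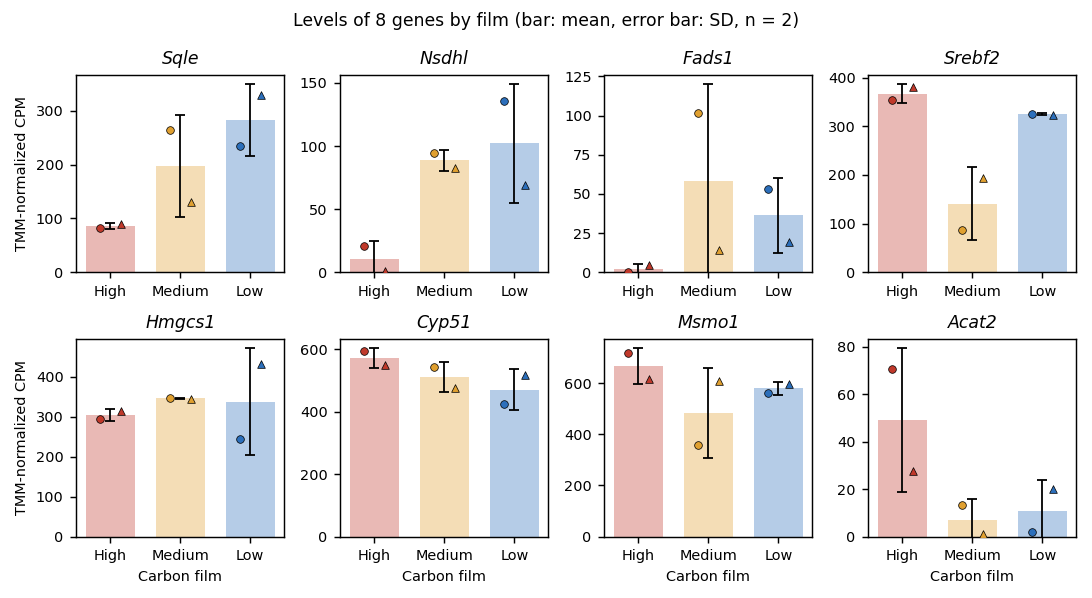
TMM-normalized CPM of 8 members by film; points are libraries (circle replicate 1, triangle replicate 2), bars the mean and error bars the SD (n = 2), cut at 0. Sqle and Nsdhl sit above both High libraries on the other films, Srebf2 is lowest on Medium (88.0 and 194 CPM), and Cyp51 stays between 425 and 595 CPM.

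Fdft1, squalene synthase, had 106 and 194 CPM on High, 28.4 and 81.8 on Medium, and 118 and 190 on Low. Medium was lowest in both libraries, with a log2 difference from High of -1.45 ± 0.81 (adjusted p = 0.908). Dhcr7, which makes the final reduction to cholesterol, had 6.56 and 47.3 CPM on High, 45.5 and 51.4 on Medium, and 74.9 and 123 on Low. Low was highest in both libraries, and the log2 difference of Low from High was 1.88 ± 1.43 (adjusted p = 0.958).

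Tm7sf2, a sterol reductase, was at 45.5 to 52.1 CPM in the Medium and Low libraries, between the High libraries at 28.1 and 76.7 CPM. Sc5d, a desaturase near the end of the pathway, ran from 19.9 to 166 CPM with overlap of all films. Lss, which folds squalene epoxide into lanosterol, stayed at 0 to 8.62 CPM and was at 0 in 1 library each of Medium and Low. Ebp, the sterol isomerase, was at 45.2 CPM in Medium replicate 2 and at most 2.67 CPM elsewhere.

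Hsd17b7, a reductase of the demethylation complex, shows how uneven the counts of low genes were. It had 374 and 0 counts on High, 345 and 3 on Medium, and 0 and 0 on Low. Against a floor of 3 counts per library, Low was at least 82.1-fold lower than the mean of High and at least 63.6-fold lower than the mean of Medium, each of which rests on 1 library. edgeR's quasi-likelihood test did not call it for Low against High (adjusted p = 0.899), DESeq2 did (adjusted p = 3.56e-09), and leaving out High replicate 1 turned the log2 difference of Low and Medium against High from -5.57 to 5.22.

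For the regulators and the carrier, all 4 fitted differences of Low and Medium from High were negative, and Srebf2 had its lowest levels on Medium. Srebf2, the SREBP with the main role in cholesterol synthesis, had 353 and 381 CPM on High, 88.0 and 194 on Medium, and 326 and 323 on Low. Medium was lowest in both libraries, while Low lay just under High. The 88.0 CPM came from Medium replicate 1, the library with the fewest rows counted. Medium differed from High by -1.38 ± 0.47 (unadjusted p = 0.0143, adjusted p = 0.874) and Low from Medium by 1.20 ± 0.47 (unadjusted p = 0.0271, adjusted p = 1). Low differed from High by -0.18 ± 0.46. For Medium against High the adjusted p was 0.0192 with DESeq2 and 0.0371 without Medium replicate 2, whose 194 CPM is the higher of the pair, and from 0.392 to 1 in the other alternatives.

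Srebf1, the SREBP that mainly drives fatty acid synthesis, had 24.4 and 29.2 CPM on High, 0 and 38.7 on Medium, and 30.3 and 0.501 on Low. Insig1, which holds SREBP in the endoplasmic reticulum when sterols are plentiful, had 152 and 48.0 CPM on High, 87.5 and 42.6 on Medium, and 59.7 and 64.5 on Low. Stard4, a cytosolic sterol carrier, was at 29.6 to 58.9 CPM in replicate 2 of every film and at no more than 0.342 CPM in replicate 1. High overlapped with the other films for all 3 genes. The log2 differences of the 4 genes, Low and Medium against High, ran from -0.95 to -0.63 with a median of -0.72, none passed the test, and Insig1 and Stard4 changed sign when a High library was left out.

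In fatty acid synthesis, Acly and Fasn had most of the counts. Acly, which makes cytosolic acetyl-CoA from citrate, had 42.9 and 224 CPM on High, 4.10 and 147 on Medium, and 266 and 203 on Low. Replicates on High and Medium differed more than the films, and the log2 difference of -0.0033 ± 1.05 has an interval from 0.196-fold to 5.07-fold. Fasn, fatty acid synthase, had 184 and 147 CPM on High, 158 and 186 on Medium, and 70.4 and 206 on Low, and its films overlapped throughout.

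Fads1 and Elovl6, which desaturate and lengthen fatty acids, had few counts on High. Fads1 had 0 and 19 counts on High, 596 and 88 on Medium, and 368 and 117 on Low, or 0 and 4.51, 102 and 14.4, and 53.1 and 19.6 CPM. All 4 Low and Medium libraries were above High, and the log2 difference was 4.34 ± 2.72 (adjusted p = 0.801). Elovl6 had 1.64 and 6.41 CPM on High, 0 and 36.7 on Medium, and 112 and 93.9 on Low. Low was above High in both libraries, with a log2 difference of 4.67 ± 2.67 (unadjusted p = 0.111, adjusted p = 0.899), while Medium had the lowest library of all.

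**Figure D4:**
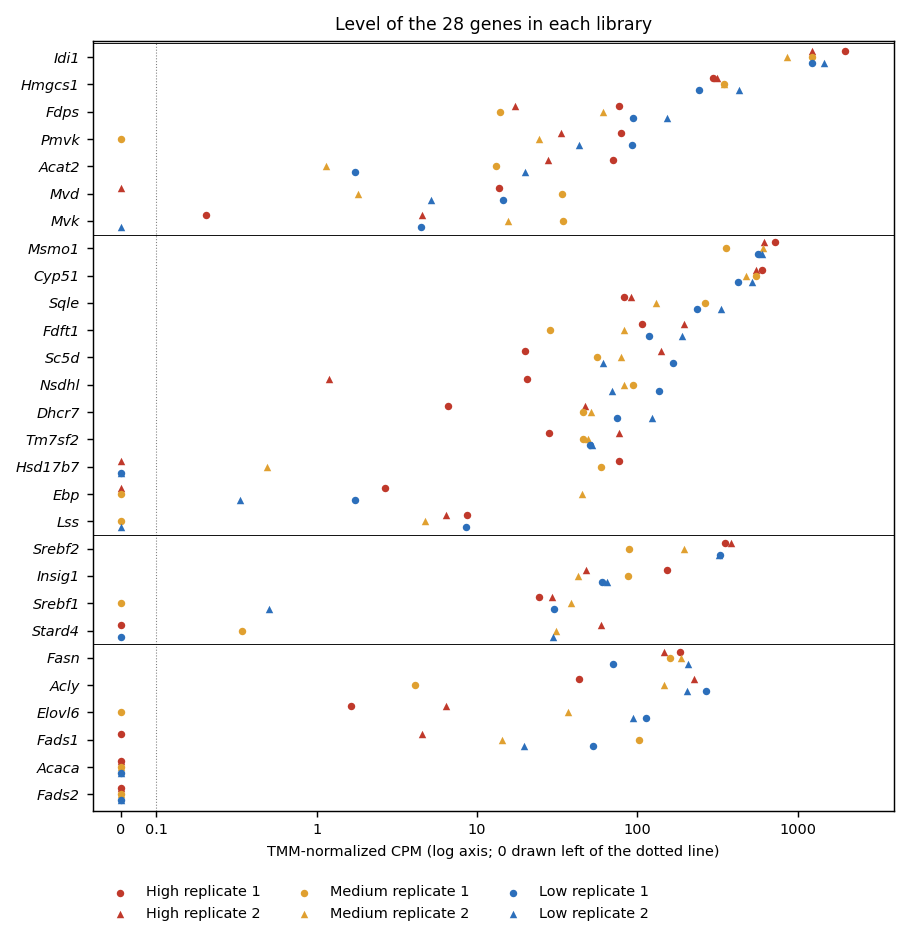
TMM-normalized CPM of all 28 genes in each of the 6 libraries (log axis, with 0 drawn at the left), grouped by role and ordered by level within a group. Many genes of lower level include a library at 0, and some genes above 100 CPM also spread widely, such as Acly from 4.10 to 266 CPM; Acaca and Fads2 are at 0 throughout.

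The replicates of a film differed most for the genes of low level. There were 9 members with a mean of at least 100 CPM, and for these the median ratio between the replicates was 1.16 on High, 1.69 on Medium and 1.31 on Low. All rows tested at that level had 1.38, 1.47 and 1.42. For the 17 other members tested it was 4.46, 9.24 and 2.70, beside 2.83, 6.05 and 2.78 for all rows under 100 CPM. Of the 26 members, 10, 12 and 5 differed over 4-fold between the replicates of High, Medium and Low (38.5%, 46.2% and 19.2%), beside 33.2%, 44.9% and 33.3% of all rows tested. In all, 8 members had 0 counts in 1 library of a film and at least 50 in the other.

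Summed over roles, the levels gave a lower Medium film for the regulators and a higher Low film for the fatty acid enzymes. For both groups the lower Medium sum came from replicate 1, the library with the fewest rows counted, and its part was not tested. The 4 regulators and carrier summed to 530 and 517 CPM on High, 176 and 306 on Medium, and 416 and 418 on Low, most of it from Srebf2. Medium was below High and Low under all 4 scalings tried, while Low was below High except with library totals alone, where they overlapped. The fatty acid genes summed to 229 and 381 CPM on High, 264 and 383 on Medium, and 502 and 522 on Low, and Low was above the other films under all 4 scalings. Elovl6 had means of 4.03 CPM on High and 103 on Low, and Fads1 had 2.26 and 36.3. Acly had 133 and 235 and Fasn 165 and 138, so not every gene was higher on Low. The summed level of 8 neuron genes was 69.1 and 30.9 CPM on High, 27.0 and 146 on Medium, and 201 and 140 on Low. This neuron sum too was higher on Low than on High, and its part in the sums above was not tested. Most of it was Gap43, with 56.8 and 18.3 CPM on High, 26.8 and 145 on Medium, and 167 and 110 on Low. Tubb3 was counted only on Low, and Map2 and Dcx almost only there. Stmn2 and Snap25 were each counted in only 1 High library, and Rbfox3 and Syt1 in none. The summed level of 7 astrocyte genes ran from 129 to 219 CPM with overlap of all films.

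The mevalonate sums were 2494 and 1614 CPM on High, 1661 and 1303 on Medium, and 1679 and 2108 on Low, with Idi1 as the main part. The sterol enzymes summed to 1663 and 1722 CPM on High, 1496 and 1608 on Medium, and 1776 and 1940 on Low. For these enzymes Medium was below High on the TMM scale and above it with library totals alone. The 4 most abundant members, Idi1, Msmo1, Cyp51 and Hmgcs1, made up 56.2% to 72.5% of the summed level. These sums are descriptions and were not tested.

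**Figure D5:**
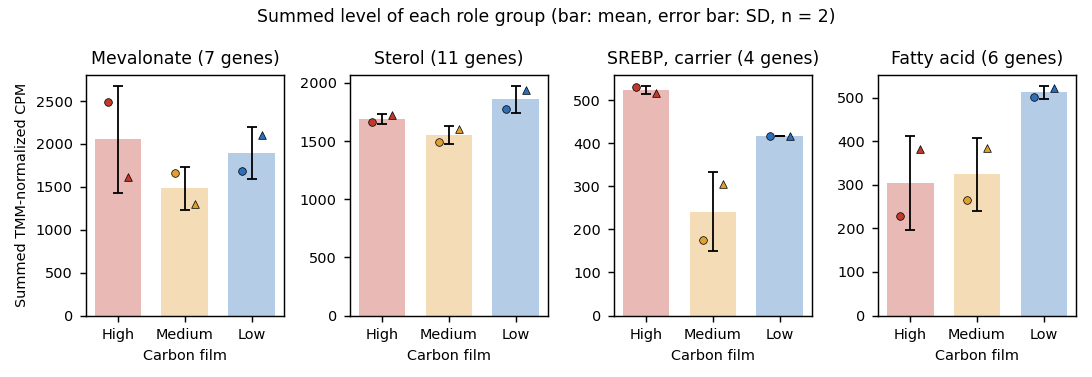
Summed TMM-normalized CPM of the members in each role group by film; points are libraries (circle replicate 1, triangle replicate 2), bars the mean and error bars the SD (n = 2). The regulators and carrier are lowest on Medium (176 and 306 CPM) and the fatty acid enzymes highest on Low (502 and 522 CPM).

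Other genes of the same pathways were taken from a list of 52, of which 50 were in the tables, 12 were at 0 in every library and 34 were tested. In Low and Medium against High none passed the adjusted threshold and 0 had an unadjusted p under 0.05, with a median log2 difference of -0.31. All libraries of Low and Medium exceeded both of High for 5 of the 34, among them Ggps1, Acat1, Scap and Hsd17b12 (8.06% of all rows), and were below both for 2, Slc25a1 and Lipa (10.1% of all rows). These genes are named after their values were seen. Scap, which escorts SREBP out of the endoplasmic reticulum, had 61.7 and 40.6 CPM on High, 114 and 98.3 on Medium, and 113 and 87.2 on Low. Slc25a1, which exports the citrate that Acly uses, had 76.3 and 110 CPM on High, 13.8 and 27.8 on Medium, and 22.1 and 59.2 on Low, with a log2 difference of -1.68 ± 1.19 (adjusted p = 0.815).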

How the data were processed

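The authors used Bowtie2 for aligning the QuantSeq 3′ reads and bedtools for counting, with multiple alignments included, so genes with near-identical copies are uncertain, and the submitters' notes name the build rn6. What the authors deposited are whole-number counts, not normalized, 1 table per library, and no column of other samples was present (0 columns). Nothing describes the removal of PCR duplicates. The labels name Trizol for RNA isolation and the methods a Ribospin kit. Samples were grouped by the film in their titles. Counts were filtered with filterByExpr, scaled with TMM and fitted with edgeR 4.0.16 in R 4.3.3 (quasi-likelihood test, 3 film means over 6 libraries, threshold 0.05). Group values are mean ± SD over 2 libraries. The standard error of a log2 difference was not estimated directly. It is the size of the difference divided by the square root of the F value of its quasi-likelihood test. Intervals are built from it with 3 residual and 6.96 prior degrees of freedom. The scripts were tested on simulated data. The alternatives were DESeq2 1.42.0, other scalings and filters, a replicate block, fewer libraries and each library left out. An exact permutation test of 4 libraries against 2 cannot go below p = 0.133, and of 2 against 2 not below 0.333. Genes named were members, and pathway genes with an unadjusted p under 0.05 or chosen after their values were seen. The members and lists were chosen with earlier results of these data known. Promoter windows and gene names came from RefSeq tables of GRCr8, matched by symbol, with no coordinates taken from the counts. The values of 1 pathway gene are not reported here.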

Additional observations from a re-analysis of the deposited data

How the results depend on the processing

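Counts of members are given for the combined comparison of Low and Medium with High, then for Low with High, Medium with High and Low with Medium. With DESeq2 2, 2, 1 and 1 members passed the adjusted threshold, among 375, 300, 307 and 116 rows. With edgeR 0 passed in each comparison, and 1 member had no adjusted p from DESeq2. On leaving out each library in turn, edgeR called members only without Medium replicate 2. An unadjusted p under 0.05 was reached by 1 member in each comparison. Without a filter it was reached by 3, 3, 3 and 3, with a mean count of at least 10 by 2, 3, 3 and 2, with DESeq2 by 6, 4, 6 and 3, and on leaving out a library by 1 to 6, 1 to 4, 1 to 9 and 0 to 6, the highest without Medium replicate 2 and, in Low with High, also without High replicate 2. Library totals alone gave 2, 2 and 2 in the comparisons with High (7.06%, 5.73% and 6.03% of all rows). DESeq2's size factors and the removal of ribosomal RNA rows gave 2 each in Medium against High (4.23% and 4.06%). Only the 4 libraries compared, an alternative chosen after seeing the data, gave 2 in Low against High (8.19% of all rows) and 0 in Low against Medium (1.41%). Over all rows tested, the differences between replicates were nearly uncorrelated between films (correlations 0.00344 to 0.00731). This measure cannot exclude an effect shared by libraries of the same replicate number in some genes, such as Stard4. With a replicate block the counts were 2, 3, 3 and 2 (5.42%, 4.45%, 4.68% and 1.67% of all rows), with no member past the adjusted threshold. Of all genes, 57, 30, 39 and 0 rows passed it with the block, instead of 10, 4, 1 and 0.

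The median log2 difference of the members became 0.31, 0.43 and 0.0908 in the comparisons with High under library totals alone, beside 0.26, 0.42 and 0.29 over all rows. With the replicate block it became 0.0897 (Low and Medium against High) and -0.0515 (Medium against High), beside -0.13 and -0.12 over all rows. On leaving out a library it ran from -0.39 to 0.0157, -0.14 to 0.18, -0.49 to 0.0676 and 0.23 to 0.53. Over all rows the median then ran from -0.63 to 0.32, -0.14 to 0.17, -0.77 to 0.14 and -0.11 to 0.65. Of 338 log2 differences of single members in Low and Medium against High, 307 kept their direction and side of the threshold, 2 passed it (Sqle and Hsd17b7 with DESeq2) and 29 changed sign. Under library totals alone these were Cyp51 (0.17), Tm7sf2 (0.35), Msmo1 (0.0463), Acly (0.43) and Fasn (0.28), with the block Tm7sf2 (0.0276), Stard4 (0.23) and Acly (0.21), and without a filter Acly (0.000823). On leaving out a library the ranges that cross 0 were Hmgcs1 (-0.0665 to 0.35), Mvk (-1.64 to 5.06), Mvd (-0.70 to 9.27), Fdps (-0.19 to 1.99), Tm7sf2 (-0.64 to 0.81), Hsd17b7 (-8.49 to 5.22), Ebp (-3.14 to 7.83), Sc5d (-0.68 to 2.13), Insig1 (-1.26 to 0.41), Stard4 (-5.63 to 9.50), Acly (-2.12 to 1.63), Fasn (-0.59 to 0.19) and Elovl6 (-1.42 to 4.71). The cause was not tested. The depth, at which 1 count is worth up to 0.238 CPM, limits genes with few counts, and intervals from these libraries cover their spread alone.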
